A study of Rattus norvegicus with 12 samples.

Results

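Matricellular proteins are secreted into the extracellular matrix, where they act mainly on how cells attach and signal and less as load-bearing fibres. Many of them are abundant while tissue forms and become scarce in tissue at rest, and several return in wounds and in diseased arteries and valves. The 10 genes described here were chosen by name: Tnc, Postn, Cthrc1, Sparc, Sparcl1, Thbs1, Thbs2, Fn1, Ccn1 and Ccn2. Every probe set whose only annotated symbol was among these names was taken. This found 9 of the 10 genes, out of 14218 genes that the value table names by a single symbol. Sparc had 2 probe sets, the other 8 genes had 1 each, and Thbs1 was not analysed here because no probe set was annotated to it.

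The series holds 12 Affymetrix arrays of RNA from Wistar rats, with 3 arrays in each of 4 groups. The groups were semilunar valves (aortic and pulmonary together) of adult males, semilunar valves of newborns taken by 24 hours after birth, the proximal aorta of adult males, and the proximal aorta of newborns of the same age. No source used here gives the adults' age in weeks or the newborns' sex, so adult male tissue was compared with newborn tissue of unstated sex. Nothing in the labels says whether the 3 arrays of a group came from separate animals or pools, so p-values measure only the spread between these arrays, which may be technical. Values are MAS5 signals, linear intensities scaled by the authors on each array. Their log2 values were compared with limma across 18552 probe sets, and a difference was called at an adjusted p under 0.05.

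Several arrays stood apart or went against their labels. For the 6 arrays titled adult aorta or neonatal valve, the description and the tissue entry name the other of these groups; the groups here follow the titles and source names. Under the other entries the values given for adult against neonatal aorta would be those of neonatal valve against neonatal aorta and the reverse, as would those of the other pair of comparisons (adult valve against neonatal valve, and adult valve against adult aorta). Igf2, a fetal growth factor, had signals of 184 to 376 in adult valve, 6189 to 8898 in neonatal valve, 339 to 879 in adult aorta and 17222 to 20768 in neonatal aorta. Adult aorta 1 carried skeletal muscle and squamous epithelium markers at median log2 signals of 14.16 and 14.26, against 6.52 to 7.36 and 6.80 to 6.90 in the other adult aorta arrays. Neonatal aorta 2 carried squamous markers at 12.21 and neonatal valve 3 thymocyte markers at 12.38. These arrays and adult aorta 1 are the 3 arrays with markers of other tissues that some fits below leave out. Other uneven arrays stayed in those fits. Adult valve 3 had a red blood cell median of 14.3, against 11.28 and 10.04 in adult valve 1 and 2. Its smooth muscle median was 7.47, against 12.22 and 10.81. Adult valve 2 had a cardiac muscle median of 13.11, against 9.68 and 8.61 in adult valve 1 and 3. Cardiac muscle markers (10 of 11 measured) had medians of 8.61 to 13.11 in adult valve, 13.11 to 13.78 in neonatal valve, 5.43 to 6.39 in adult aorta and 11.94 to 12.88 in neonatal aorta. The valve interstitium markers (4 of 6 measured) summed to signals of 18078 to 22000 in adult valve, 1373 to 2308 in neonatal valve, 3185 to 11155 in adult aorta and 2665 to 3749 in neonatal aorta. The neonatal valve arrays were the lowest by this sum, in which Cytl1 (13360 to 18979 in adult valve) weighed heavily. By median log2 signal, neonatal valve (7.72 to 8.95) overlapped neonatal aorta (8.78 to 9.03). Adult valve had medians of 10.19 to 10.92 and adult aorta 9.55 to 10.3. Added bacterial control RNAs were near absent on neonatal aorta 2 and 3 (5.82 to 54.6 for 4 controls), while dap among them read 1799 to 13879 on the other 10 arrays.

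The promoters of 4 members are shown because the calls for these genes differed. Tnc was called lower with age in both tissues and Sparcl1 higher in adult aorta, a call that held in 5 of 20 alternative fits. Of the sister genes, Ccn1 was called lower in adult valve than in adult aorta, and Ccn2 was not called. Without adult aorta 1 both had the same signs in the comparisons that involve adult aorta, which share its arrays. By age in the aorta Ccn1 was then 2.06 and Ccn2 1.19. Between adult valve and adult aorta Ccn1 was -1.97 and Ccn2 -1.31, with neither Ccn2 difference called. Elsewhere in that fit their signs were opposite. By age in the valve Ccn1 was -0.24 and Ccn2 0.75, and between newborn valve and aorta 0.33 and -0.87. Each promoter is the 250 bases before the annotated start in RefSeq on GRCr8, on the gene's own strand: Tnc at chr5:82476132-82476381 (minus), Sparcl1 at chr14:5937234-5937483 (plus), Ccn1 at chr2:237225690-237225939 (minus) and Ccn2 at chr1:22624615-22624864 (minus). Capitals mark GGAATG or its reverse complement CATTCC, the core letters bound by TEAD factors, the DNA-binding partners of YAP and TAZ.
Tnc: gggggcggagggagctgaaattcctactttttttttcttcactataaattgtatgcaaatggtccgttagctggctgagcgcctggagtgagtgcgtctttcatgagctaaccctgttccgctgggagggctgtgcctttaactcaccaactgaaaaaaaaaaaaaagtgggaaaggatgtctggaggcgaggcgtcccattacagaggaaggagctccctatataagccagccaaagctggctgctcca
Sparcl1: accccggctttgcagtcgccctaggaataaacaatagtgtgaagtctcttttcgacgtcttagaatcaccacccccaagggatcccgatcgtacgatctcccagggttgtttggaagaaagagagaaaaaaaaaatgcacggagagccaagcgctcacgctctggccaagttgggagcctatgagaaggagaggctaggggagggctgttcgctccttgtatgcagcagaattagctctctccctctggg
Ccn1: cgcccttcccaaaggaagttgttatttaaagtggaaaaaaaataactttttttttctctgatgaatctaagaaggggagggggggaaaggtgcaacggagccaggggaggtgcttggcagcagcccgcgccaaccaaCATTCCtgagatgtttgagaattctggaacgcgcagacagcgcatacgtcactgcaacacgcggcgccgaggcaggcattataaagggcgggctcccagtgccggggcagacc
Ccn2: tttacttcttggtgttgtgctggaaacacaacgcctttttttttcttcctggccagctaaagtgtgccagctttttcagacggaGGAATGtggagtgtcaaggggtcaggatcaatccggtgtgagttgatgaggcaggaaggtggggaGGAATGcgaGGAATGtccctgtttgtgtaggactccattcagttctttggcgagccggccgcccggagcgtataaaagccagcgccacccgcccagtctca

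Of the 10 members, 7 had a promoter in the RefSeq table. The TEAD letters occurred 3 times before Ccn2, with first bases 166, 101 and 92 bases before the start. Ccn1 held them 113 bases before its start, Sparc 33 and Thbs1 47 bases before theirs. The Tnc, Postn and Sparcl1 windows held none. For reference, 11.8% of 27457 rat promoters of this length held the letters on either strand. TATAAA on the gene's strand stood 31 bases before the start of Ccn2, 34 before Ccn1, 44 before Postn and 208 before Tnc, and was held by 8.38% of promoters. Only exact matches were counted, so the similar letters tatataag near the end of the Tnc window were left out. These matches describe the letters alone.

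Of the members, Cthrc1 and Tnc fell with age in both tissues. In the aorta, 1 of the 10 member probe sets was called higher in adults (Sparcl1), where 1.94% of all probe sets tested were called higher, and 3 were called lower (Cthrc1, Tnc and Thbs2), where 5.37% were called lower. In the valve, none was called higher in adults by limma, or at an unadjusted p under 0.05, where 4.0% of all probe sets were called, and 2 were called lower (Cthrc1 and Tnc), where 5.21% were. The median log2 difference over the 10 member probe sets was -0.84 in adult against neonatal aorta and -0.61 in adult against neonatal valve. Over all probe sets it was -0.08 and -0.04. The aorta value rested on adult aorta 1, without which the members' median was -0.07 and that of all probe sets -0.06. In a bulk sample, fewer cells of a type and less RNA per cell cannot be told apart. All 10 member probe sets passed the filter on low signals. Tnc and Cthrc1 were high on newborn arrays, but each was also above the filter's median of 171.9 on 3 adult arrays. These read 267, 203 and 188 for Tnc and 464, 508 and 269 for Cthrc1. Ccn1 passed chiefly through adult aorta arrays, where it was high.

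**Figure D1:**
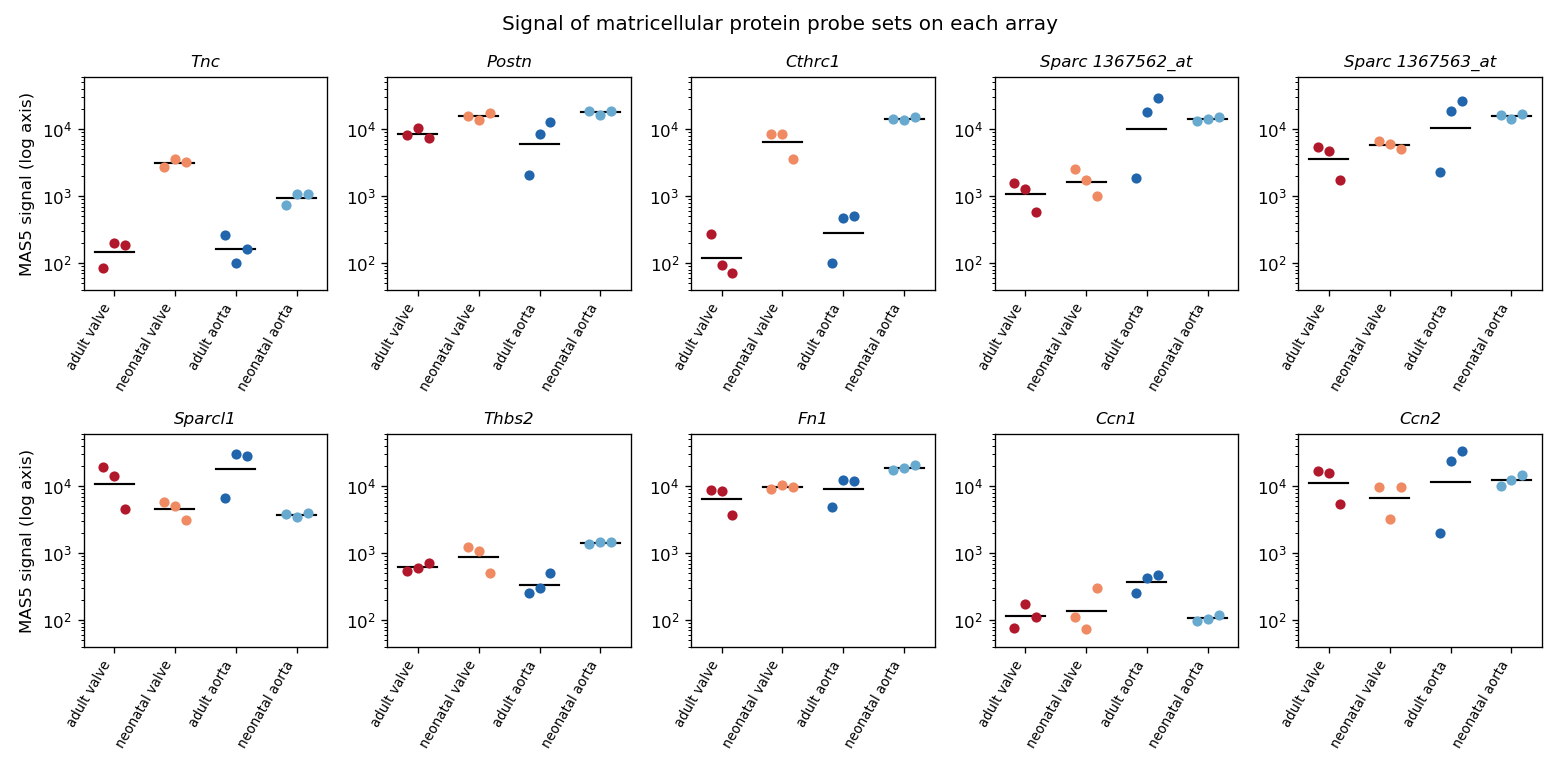
MAS5 signal (log axis) of the 10 member probe sets on each of the 12 arrays, by group; points are arrays in replicate order and bars are geometric means. Tnc and Cthrc1 are low in both adult groups, and adult aorta 1, the first point of its group, lies below the other adult aorta arrays for 9 of the 10 probe sets; for Tnc it lies above them.

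Cthrc1 encodes a secreted protein first found in injured rat arteries, where it is known to limit collagen deposition. Its signals were 269, 93.2 and 70.6 in adult valve, against 8546, 8579 and 3617 in neonatal valve. The adult aorta arrays read 99.4, 464 and 508, against 14019, 13793 and 15401 in neonatal aorta. Every newborn array was above every adult array of its tissue. Cthrc1 fell 53.1-fold in adult valve (log2 difference -5.73 ± 0.64 SE, adjusted p 0.00086) and 50.3-fold in adult aorta (-5.65 ± 0.64 SE, adjusted p 0.00083). The 2 age differences differed by -0.08 (95% interval -2.07 to 1.92), with an adjusted p of 0.98.

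Tnc encodes tenascin-C, a large glycoprotein that loosens cell attachment and is typical of growing and wounded tissue. Its signals were 85.3, 203 and 188 in adult valve, against 2730, 3565 and 3252 in neonatal valve. In adult aorta they were 267, 99.6 and 164, against 734, 1071 and 1091 in neonatal aorta. The groups overlapped by tissue only among adults, and all 3 neonatal valve arrays were the highest of the series. Tnc fell 21.3-fold in adult valve (-4.42 ± 0.40 SE, adjusted p 0.0003) and 5.82-fold in adult aorta (-2.54 ± 0.40 SE, adjusted p 0.0046). Among newborns it was 3.33-fold higher in valve than in aorta (1.74 ± 0.40 SE, adjusted p 0.0071). Among adults the log2 difference of valve minus aorta was -0.14 (95% interval -1.01 to 0.73, adjusted p 0.81), and it was 0.25 with the arrays centred on their medians.

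Cardiac muscle markers moved with part of this pattern, since they were higher in neonatal valve than in neonatal aorta, and their part in the Tnc difference between newborn tissues was not tested. Nor was their part in the age differences tested; on adult valve 2, a single array, the cardiac marker median was 13.11, the Tnc signal 203 and the Cthrc1 signal 93.2. When the absence of control RNAs was fitted as a block, neonatal aorta 1 was the only array left to set the level of its group. The Cthrc1 call in the aorta held in that fit (-5.61, adjusted p 0.044), with adjusted p from 0.0004 to 0.044 over all 20 alternatives. The Tnc differences were -2.17 by age in the aorta (adjusted p 0.17) and 2.11 between newborn valve and aorta (adjusted p 0.051), both no longer called. Over the other alternatives both Tnc calls held, with adjusted p as low as 0.0012 and 0.0023. Without adult aorta 1, neonatal aorta 2 and neonatal valve 3, which carried markers of other tissues, the adjusted p-values were 0.015 and 0.028. Other arrays with uneven markers, such as adult valve 2 and 3, stayed in that fit.

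Postn encodes periostin, a partner of fibrillar collagen and of integrins that is known for its role in maturing valves. Its signals were 8215, 10393 and 7532 in adult valve, against 15988, 13834 and 17683 in neonatal valve. The adult aorta arrays read 2075, 8625 and 12730, against 18755, 16440 and 18896 in neonatal aorta. All adult arrays lay below the newborn arrays of their tissue, but neither age difference was called. The log2 difference was -0.87 in valve (95% interval -1.97 to 0.24, adjusted p 0.30) and -1.56 in aorta (95% interval -2.66 to -0.45, adjusted p 0.085). The aorta difference passed the threshold in 2 of 20 alternatives, without adult aorta 1 (-0.78) or adult aorta 3 (-2.09). The SD of log2 signal was 1.38 in adult aorta and 0.11 in neonatal aorta. Between tissues the difference was -0.19 among newborns (0.14 with centred arrays) and 0.50 among adults, with overlapping arrays in both.

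Thbs2 encodes thrombospondin-2, known for restraining new vessels and for its part in collagen fibre assembly. Its signals were 550, 595 and 709 in adult valve, against 1234, 1062 and 510 in neonatal valve. In adult aorta they were 253, 307 and 503, against 1364, 1452 and 1463 in neonatal aorta. The age groups did not overlap in the aorta but did in the valve, through neonatal valve 3, the array with thymocyte markers. Thbs2 fell 4.2-fold in adult aorta (-2.07 ± 0.34 SE, adjusted p 0.0054). In the valve the log2 difference was -0.51 (95% interval -1.25 to 0.23, adjusted p 0.37), and it was -0.90, also not called, without the 3 arrays that carried markers of other tissues. With the control RNAs as a block the aorta difference was -2.01 and was no longer called (adjusted p 0.15, from 0.0023 to 0.15 over the alternatives). Among adults the valve was above the aorta on every array, by 0.86 ± 0.34 SE, which missed the threshold (adjusted p 0.066). It passed in 3 of 20 alternatives, among them centred arrays (1.25).

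Fn1 encodes fibronectin, the scaffold on which cells assemble other matrix proteins and the ligand of the integrin that Itga5 helps to form. Its signals were 8745, 8409 and 3718 in adult valve, against 9179, 10487 and 9734 in neonatal valve. The adult aorta arrays read 4887, 12224 and 12169, against 17650, 18586 and 20972 in neonatal aorta. Adult arrays lay below newborn arrays in both tissues, by log2 differences of -0.59 in valve (adjusted p 0.35) and -1.08 in aorta (adjusted p 0.11), and neither was called. Neonatal valve was below neonatal aorta on every array, by -0.96 ± 0.38 SE (adjusted p 0.075).

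Sparc encodes osteonectin, a collagen-binding protein that guides fibril formation, and was read by a pair of probe sets. Probe set 1367562_at had signals of 1594, 1296 and 580 in adult valve, 2576, 1718 and 1005 in neonatal valve, 1887, 18083 and 29343 in adult aorta, and 13461, 14043 and 15135 in neonatal aorta. Probe set 1367563_at had 5504, 4726 and 1765 in adult valve, 6626, 5989 and 5104 in neonatal valve, 2269, 18860 and 26375 in adult aorta, and 16209, 14286 and 16904 in neonatal aorta. Both were lower in valve than in aorta apart from adult aorta 1, which read near the valve arrays.

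By tissue, 1367562_at was called lower in valve, by 8.63-fold among newborns (-3.11 ± 0.82 SE, adjusted p 0.014) and by 9.42-fold among adults (-3.24 ± 0.82 SE, adjusted p 0.010). The companion 1367563_at gave -1.42 (adjusted p 0.17) and -1.54 (adjusted p 0.13) and was called in neither. By age neither was called, and their log2 differences lay between -0.71 and -0.51. The newborn tissue call of 1367562_at was lost with the control RNAs as a block (-3.03, adjusted p 0.15). It was lost too without neonatal valve 3 (-2.75, adjusted p 0.056), and its adjusted p ran from 0.00031 to 0.15 over the alternatives. The adult call held in all 20 alternatives.

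The Sparc probe sets differed from each other in valve more than in aorta. The ratio of 1367563_at to 1367562_at was 2.57 to 5.08 on the valve arrays, against 0.899 to 1.20 on the aorta arrays, with geometric means of 3.47 and 1.07. This ratio was looked at after the probe sets had given unlike tissue differences, so it is a description and is given without a p-value. The 3' to 5' ratio of the beta-actin control, a measure of how much of the transcript reached the array, was 7.24 to 14.0 in valve, against 1.40 to 2.59 in aorta. For GAPDH the geometric means were 2.90 in valve and 1.00 in aorta. No valve array overlapped an aorta array in either of these control ratios. Coverage and tissue therefore cannot be told apart in the comparisons between tissues. Within the valve the ages did not overlap either. The beta-actin ratio was 10.6 to 14.0 in adult valve and 7.24 to 8.84 in neonatal valve, and the GAPDH ratio 2.78 to 5.13 and 1.97 to 2.6. Coverage and age thus cannot be told apart in the valve. The part of coverage in the Sparc difference and in the valve age differences was not tested. No source used here says where the probe sets lie along the transcript.

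**Figure D2:**
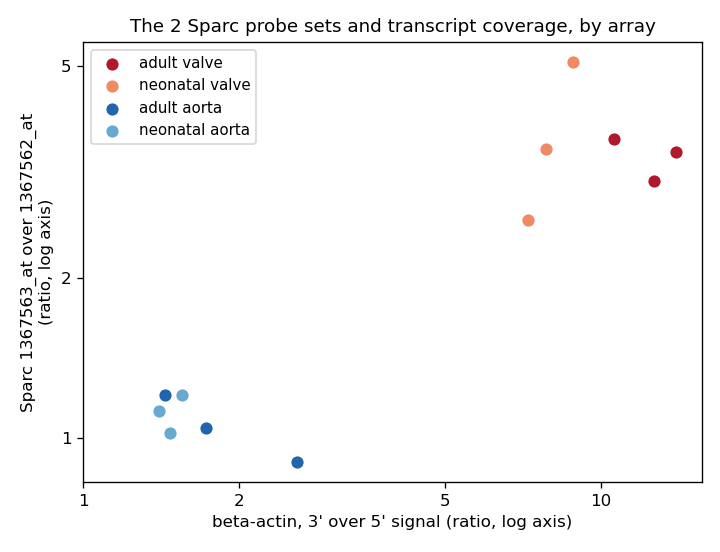
Ratio of the 2 Sparc probe sets (1367563_at over 1367562_at) against the beta-actin 3' over 5' ratio on each array, both on log axes; colours mark the 4 groups. The 6 valve arrays lie at Sparc ratios of 2.57 to 5.08 and the 6 aorta arrays at 0.899 to 1.20, with no overlap on either axis.

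Sparcl1 encodes hevin, the closest relative of Sparc, which is known for counter-adhesive action in adult tissues. Its signals were 19258, 14190 and 4505 in adult valve, against 5815, 5073 and 3142 in neonatal valve. In adult aorta they were 6655, 30567 and 28529, against 3891, 3476 and 4005 in neonatal aorta. The age groups did not overlap in the aorta but did in the valve, through adult valve 3, the array with the high red blood cell markers. Sparcl1 rose 4.75-fold in adult aorta (2.25 ± 0.61 SE), with an adjusted p of 0.048 that lay just under the threshold and stayed under it in 5 of 20 alternatives (0.0042 to 0.40). In the valve the log2 difference was 1.24 (95% interval -0.09 to 2.58, adjusted p 0.22). Without adult aorta 1 the aorta difference was 2.96, or 7.8-fold. Smooth muscle marker medians were 11.44 on adult aorta 1, 13.90 and 14.15 on the other adult aorta arrays and 11.90 to 12.27 in neonatal aorta. They were highest on the arrays with the highest Sparcl1, and their part was not tested.

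Ccn1 and Ccn2 encode cysteine-rich matricellular proteins of the CCN family that bind integrins and are standard targets of YAP and TAZ in human and mouse cells. Ccn1 had signals of 76.4, 175 and 111 in adult valve, 111, 74.3 and 298 in neonatal valve, 253, 426 and 472 in adult aorta, and 98.5, 104 and 121 in neonatal aorta. The adult aorta arrays were above all others except neonatal valve 3, which exceeded adult aorta 1. Among adults Ccn1 was 3.25-fold lower in valve than in aorta (-1.70 ± 0.50 SE, adjusted p 0.020), a call that held in 17 of 20 alternatives. It was lost without adult aorta 2 (-1.60), adult aorta 3 (-1.52) or adult valve 1 (-1.41), and adjusted p ran from 0.0072 to 0.072. Adult against neonatal aorta gave a 3.45-fold higher signal (1.79 ± 0.50 SE) that missed the threshold (adjusted p 0.053) and passed it in 7 of 20 alternatives. In the valve the age difference was -0.24 (95% interval -1.33 to 0.85).

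Ccn2 had signals of 16865, 16034 and 5345 in adult valve, against 9623, 3253 and 9676 in neonatal valve. The adult aorta arrays read 2008, 23521 and 33208, against 10065, 12316 and 14853 in neonatal aorta. The adult aorta arrays spanned both the lowest and the highest value of the series, and no Ccn2 difference was called. The log2 difference was -0.08 by age in the aorta (95% interval -2.05 to 1.89), 0.75 by age in the valve (-1.22 to 2.72) and -0.04 between adult valve and adult aorta (-2.01 to 1.93). Intervals of this width leave several-fold differences in either direction undetected with 3 arrays a group.

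Between tissues, Tnc, Sparc and Ccn1 were the members called. Among newborns, 1 of the 10 member probe sets was called higher in valve (Tnc), where 13.3% of all probe sets were, and 1 lower (Sparc 1367562_at), where 19.3% were. Among adults, none was called higher in valve by limma (1 at an unadjusted p under 0.05, Thbs2), where 17.3% of all probe sets were called, and 2 were called lower (Sparc 1367562_at and Ccn1), where 19.9% were. The median log2 difference over the member probe sets was -0.79 among newborns and -0.61 among adults, beside -0.09 and -0.05 over all probe sets. Without adult aorta 1 the adult median over the member probe sets was -1.38, beside -0.09 over all, and 6 of the 10 were called lower in adult valve, where 21.1% of all probe sets were. These levels depend on the scaling: median signals were 133 to 169 on valve arrays, against 182 to 202 on aorta arrays. Centring the arrays on their medians moved all valve minus aorta differences up, by 0.33 among newborns and 0.39 among adults. It turned the split of calls over all probe sets to 4072 higher and 2381 lower among newborns, against 2461 and 3582 as scaled by the authors. Among adults the split became 5308 higher and 2264 lower, against 3207 and 3684. By age in the valve it became 873 higher and 670 lower, against 742 and 967.

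**Figure D3:**
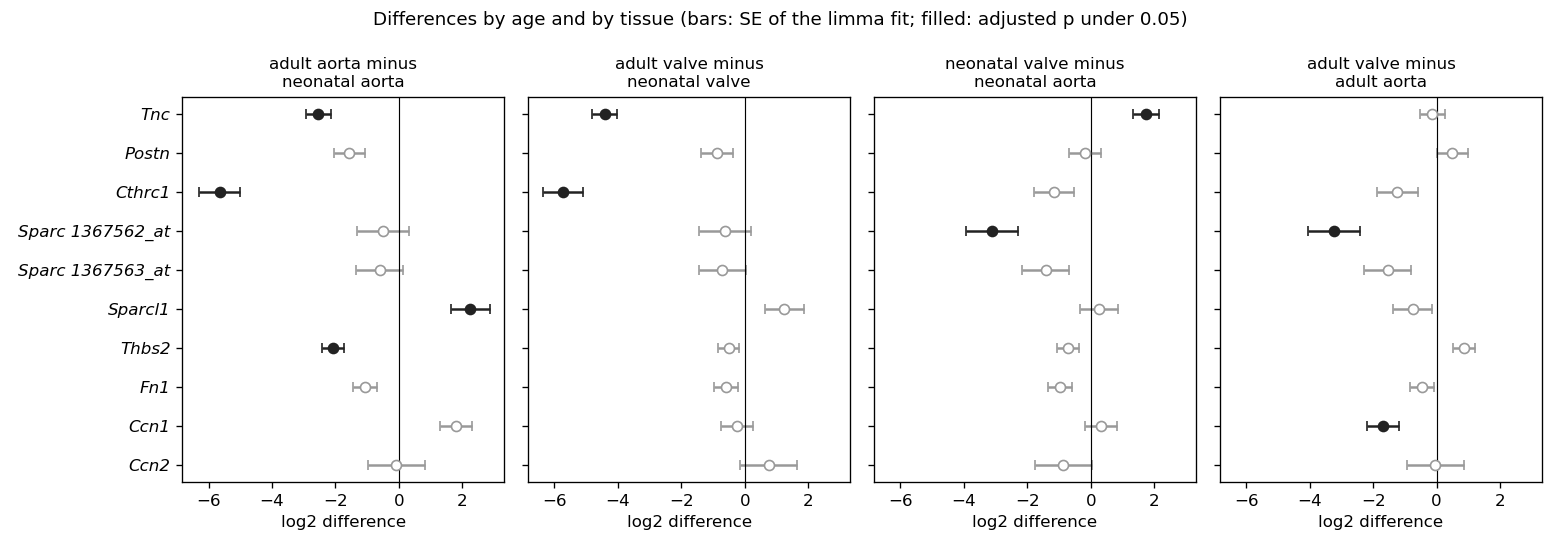
Log2 differences of the 10 member probe sets in the 4 comparisons between groups, with SE bars from limma; filled points have an adjusted p under 0.05. Cthrc1 and Tnc lie far below 0 in both age comparisons, and Sparc 1367562_at lies below 0 in both tissue comparisons.

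The age difference itself was compared between tissues. No member probe set was called, beside 0.0485% of all probe sets called higher in valve and 0.0108% called lower. At an unadjusted p under 0.05 there were 3 members. No share of all probe sets at that level is given here, so the count is not read as a result about the members. Tnc had an age difference lower in valve than in aorta by a log2 of -1.87 ± 0.56 SE (p 0.0064, adjusted p 0.24). Thbs2 differed by 1.56 ± 0.48 SE (p 0.0072, adjusted p 0.24) and Ccn1 by -2.03 ± 0.70 SE (p 0.014, adjusted p 0.30). A call in aorta and none in valve, as for Thbs2 and Sparcl1, is therefore not shown to be a difference between the tissues.

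Adult aorta 1 decided several values. It had the lowest signal of the adult aorta group for every member probe set except Tnc. Without it, both Sparc age differences in the aorta turned positive (0.70 and 0.50, not called), Postn (-0.78) and Ccn1 (2.06) were called, and Ccn2 was 1.19 and not called. Cthrc1 (-4.89, 29.6-fold), Tnc (-2.90) and Thbs2 (-1.86) stayed called lower in adult aorta. Between adult valve and adult aorta, Cthrc1 (-2.01), both Sparc probe sets (-4.44 and -2.64), Sparcl1 (-1.46), Fn1 (-0.91) and Ccn1 (-1.97) were then all called lower in valve, 6 of 10 probe sets in place of 2, where the share called lower over all probe sets was 21.1% in place of 19.9%. The shared spread shrank as well, so that Postn by age in the valve (-0.87) and, between newborns, Sparc 1367563_at (-1.42) and Fn1 (-0.96) were called with their differences unmoved.

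**Figure D4:**
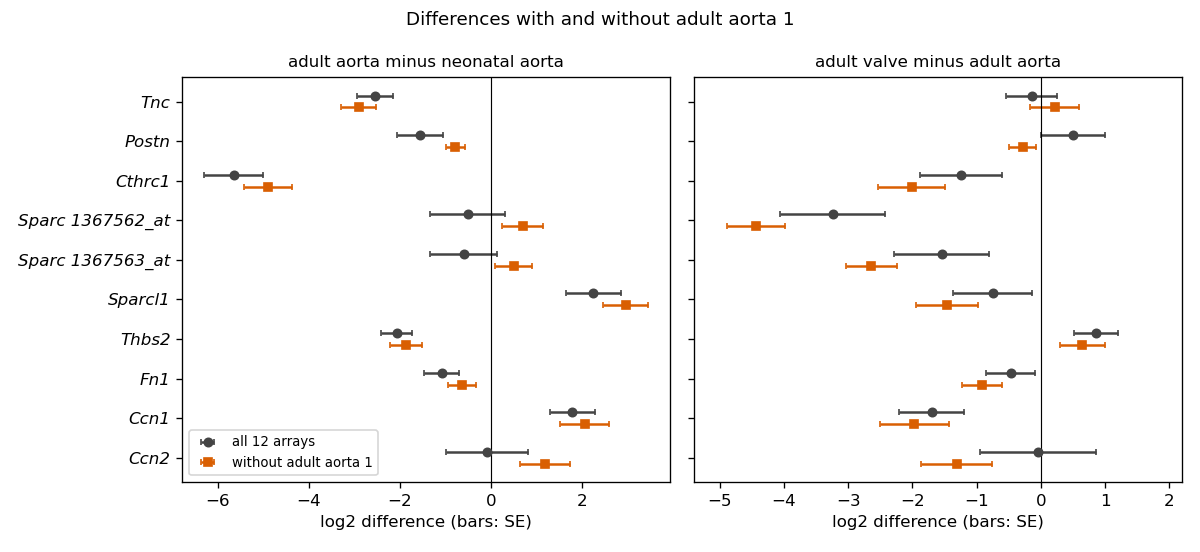
Log2 differences of the member probe sets with all 12 arrays and without adult aorta 1, for adult against neonatal aorta and for adult valve against adult aorta; bars are SE. Without this array the Sparc and Ccn2 differences by age cross 0 and most differences between adult tissues lie further below 0.

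The lists around the members were read with 1 probe set per gene, the brightest. Their counts stand beside these shares of all probe sets. By age, 1.94% were called higher and 5.37% lower in adult aorta, and 4.0% and 5.21% in adult valve. In valve against aorta, 13.3% were called higher and 19.3% lower among newborns, and 17.3% and 19.9% among adults. No such share is given for the list counts at an unadjusted p under 0.05. Of 21 other matricellular genes 13 were measured, and 0 were called higher and 1 lower in adult aorta, 1 and 1 in adult valve, 1 and 1 in neonatal valve against neonatal aorta, and 3 and 1 in adult valve against adult aorta. Comp, a thrombospondin of cartilage and tendon, had geometric mean signals of 1826 in adult valve, 180 in neonatal valve, 112 in adult aorta and 77.1 in neonatal aorta. It rose 10.2-fold with age in the valve (adjusted p 0.0081) and was 16.3-fold higher in valve than in aorta among adults (adjusted p 0.00066). Its relative Thbs4 was 6.26-fold higher in adult valve than in adult aorta (adjusted p 0.013). Tgfbi, a collagen-binding protein of the periostin family, was 3.46-fold higher in valve among newborns and 2.33-fold higher among adults (adjusted p 0.0039 and 0.022). Lgals1, a galactose-binding lectin, was 3.62-fold and 4.59-fold lower in valve (adjusted p 0.0023 and 0.00078).

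Receptors bind the members at the cell surface. Of 13 listed 12 were measured, and 0 were called higher and 1 lower in adult aorta. None was called by limma in adult valve against neonatal valve, where 3 had an unadjusted p under 0.05. Between newborns 0 were higher and 4 lower in valve, and between adults 1 was higher and 4 lower. Sdc4, a heparan sulphate co-receptor of fibronectin, was 3.38-fold lower in valve among newborns and 3.23-fold lower among adults. Itga5, the integrin chain for fibronectin, was 3.71-fold and 2.59-fold lower, and Cd36, a receptor of thrombospondins, 4.99-fold and 3.57-fold lower (adjusted p 0.0027 to 0.041 over these 6 differences). Adipocytes carry much Cd36, and their marker medians were 6.19 to 8.07 in adult valve, 5.01 to 5.13 in neonatal valve, 8.49 to 13.10 in adult aorta and 10.50 to 12.42 in neonatal aorta, and their part was not tested. Stab1, a clearance receptor that takes up Sparc, was 3.21-fold lower in valve among newborns, 2.28-fold higher in valve among adults and 3.41-fold lower in adult than in neonatal aorta.

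TGF-beta induces several of the members, Ccn2 and Postn among them. Of its 11 listed ligands, receptors and SMADs 10 were measured, and 0 were called higher and 1 lower by age in each tissue. Between newborns 0 were higher and 2 lower in valve, and between adults 1 was higher and 1 lower. Smad2, a signal carrier, was the gene called by age, at 1.53-fold lower in adult aorta and 1.81-fold lower in adult valve. Tgfb1 had geometric mean signals of 7.27 in adult valve, 13.6 in neonatal valve, 382 in adult aorta and 497 in neonatal aorta. The valve values lie in the range of 5.82 to 54.6 read for the missing control RNAs, so no fold is given. Tgfb2 was 1.96-fold higher in adult valve than in adult aorta (adjusted p 0.047). Tgfbr3, a co-receptor called lower in neonatal valve, had geometric mean signals of 39.8 there and 154 in neonatal aorta, and no fold is given because the first value also lies in that range.

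YAP and TAZ act through TEAD factors on Ccn1 and Ccn2. Of 24 listed factors and other targets 22 were measured, and 0 were called higher and 2 lower in adult aorta, 3 and 2 in adult valve, 2 and 0 in neonatal valve against neonatal aorta, and 8 and 1 in adult valve against adult aorta. Tead2 fell 4.64-fold with age in the aorta (adjusted p 0.0014) and 7.1-fold in the valve (adjusted p 0.00046). Tead1 was 3.85-fold higher in valve among newborns and 1.80-fold higher among adults. The targets Nt5e and Crim1 were 5.25-fold and 3.30-fold higher in adult valve than in adult aorta, while Ccn1 was lower there and Ccn2 was not called.

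Immediate early genes answer within minutes to injury or dissection, as Ccn1 does. Of 21 listed 17 were measured, and 1 was called higher and 0 lower in adult aorta, 4 and 0 in adult valve, 4 and 3 in neonatal valve against neonatal aorta, and 3 and 3 in adult valve against adult aorta. Ier2 was 6.23-fold higher in valve among newborns and 6.69-fold higher among adults, and Egr2, a transcription factor, 4.96-fold higher among newborns. Ier3, an early gene for cell survival, was 2.27-fold lower in valve among newborns and 3.62-fold lower among adults. Zfp36, which shortens the life of early messages, was 2.82-fold and 1.93-fold lower. The list thus moved both ways between tissues. By age its median log2 difference was 0.8 in aorta and 0.77 in valve. At an unadjusted limma p under 0.05, 8 of the 17 were higher and 0 lower in adult aorta. In adult valve 7 were higher and 1 lower. The part of the list in the Ccn1 values was not tested.

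Fibrillar collagens, small proteoglycans and fibroblast receptors describe the matrix the members act on. All 10 listed genes were measured, and 0 were called higher and 2 lower in adult aorta, 1 and 1 in adult valve, 0 and 2 in neonatal valve against neonatal aorta, and 1 and 0 in adult valve against adult aorta. Col5a2, a collagen that starts fibrils, fell 3.7-fold in adult aorta (adjusted p 0.038). Pdgfra, a fibroblast receptor, fell 2.38-fold in adult aorta (adjusted p 0.013) and was 4.56-fold higher in adult valve than in adult aorta (adjusted p 0.00016). Dcn, which encodes decorin, rose 2.0-fold with age in the valve (adjusted p 0.011). Pdgfrb, a receptor of smooth muscle and pericytes, was 5.64-fold lower in neonatal valve than in neonatal aorta (adjusted p 0.028). No gene of these 6 lists was called by limma for a difference of its age effect between tissues, and 13 of the 84 measured had an unadjusted p under 0.05.

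Across the 12 arrays the members did not share a pattern. Pearson's r of log2 signal, given as a description over arrays that share group, age and scaling, was 0.79 between Tnc and Cthrc1, 0.78 between Cthrc1 and Thbs2 and 0.89 between Sparc and Fn1. It was -0.76 between Tnc and Sparcl1, -0.70 between Thbs2 and Ccn1, and 0.34 between Ccn1 and Ccn2. The genes most like Cthrc1 were Grb10 (r 0.975), Gpc3 (0.970) and Prnd (0.967), and those most like Tnc were Mad2l1 (0.968), Parpbp (0.966) and Ect2 (0.965). Sparc was nearest to Fbn1 (0.977) and Mfap4 (0.962), Fn1 to Ganab (0.970), Postn to Copa (0.967), Sparcl1 to Dtna (0.964), Thbs2 to Tspan6 (0.957) and Ccn2 to Fblim1 (0.956). Ccn1 had no match as near, with Klhl24 at 0.882.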

How the data were processed

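The deposited values are intensity values, 1 linear signal per probe set and array, which the authors made with Affymetrix Expression Console and MAS5, per the submitters' processing notes. No source used here gives program versions or a scaling target. Poly-A RNA was labelled by in vitro transcription, per the labels' protocols. Raw images and detection calls were not used here.

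Of 31099 probe sets, 57 controls were left out. Signals under 1 were set to 1 before log2. Probe sets above the median of all signals on at least 3 of 12 arrays were kept (18552). All arrays entered a limma 3.58.1 model (R 4.3.3) with 1 mean per group and 8 residual degrees of freedom. Its eBayes step used an intensity trend. Two-sided p-values were adjusted by Benjamini and Hochberg over the probe sets kept, and errors are standard errors. The steps were tested on simulated data. With 3 arrays per group precision is limited, and Spearman correlations within groups were 0.812 to 0.960. Gene symbols came from the array's annotation, updated by gene ID, and promoters from RefSeq (GRCr8).

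All member probe sets are named. From each other list up to 4 genes are named, those with the smallest adjusted p in a comparison between groups, and for each member the genes with the highest Pearson r. Members and lists were chosen with earlier results of these data known. Comparisons that share a group share its arrays. The alternatives were other scalings, no filter, a pseudocount of 32, no intensity trend, blocks, and arrays left out.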

Additional observations from a re-analysis of the deposited data

How the results depend on the processing

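Of the member differences called, Cthrc1 by age in both tissues, Tnc by age in the valve and Sparc 1367562_at between adult tissues kept direction and call in all 20 alternatives run. Calls over all probe sets by age in the aorta fell to 69 with the control RNAs as a block and were 431 to 2485 with 1 array left out; by age in the valve they were 662 to 3093 with 1 array left out. Between newborn tissues they were 1416 with the control block. Member probe sets called with the control block were 1 by age in the aorta and 0 between newborn tissues, and leaving out 1 array gave 1 to 4 between newborn tissues and 1 to 6 between adult tissues. Without the 3 arrays with markers of other tissues, 4 member probe sets of 3 genes were called between adult valve and aorta, all lower in valve, where 18.6% of all probe sets were. Over all probe sets, calls for the difference of age effects were 7 without the intensity trend, 1 with the replicate block, 1 with the control block, 2 without the 3 arrays, and 1 to 37 with 1 array left out. Replicate numbers recur in every group but nothing says that they pair arrays, and of 18 same-numbered pairs 3 had deviations correlated above 0.1. The replicate block also gave 1128 calls by age in the aorta and lost the Sparcl1 call there; it changed no other member call. Block fits and fits with fewer arrays have fewer residual degrees of freedom; the causes were not tested further.

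Signs turned only for differences that were not called. Tnc between adult tissues was 0.35 with quantile normalization, 0.25 with centred arrays, 0.22 without the 3 arrays and -0.50 to 0.26 with 1 array left out. Postn was 0.47 and 0.14 between newborn tissues (quantile, centred), -0.28 between adult tissues without the 3 arrays, and with 1 array left out -0.28 to 1.03 there and -0.09 to 1.22 for the difference of age effects. That difference was 0.10 for Cthrc1 with the pseudocount (-0.84 to 0.34 with 1 array left out), 0.04 for Sparc 1367562_at with quantile normalization (-1.33 to 0.65) and -1.21 to 0.55 for 1367563_at. By age in the aorta the Sparc probe sets gave 0.69 and 0.43 without the 3 arrays, and -1.28 to 0.70 and -1.27 to 0.50 with 1 array left out. Ccn1 without the 3 arrays was 0.33 by age in the valve and -0.26 between newborn tissues, with ranges of -0.67 to 0.33 and -0.24 to 0.76. Ccn2 by age in the aorta was 0.21 with the control block and 1.19 without the 3 arrays (-0.83 to 1.19 with 1 array left out). Between adult tissues it was 0.46 with quantile normalization and 0.35 with centred arrays (-1.31 to 0.72), and its difference of age effects was -0.18 without the 3 arrays (-0.44 to 1.59). With 3 arrays a group, a low signal such as that of Ccn1 limits what can be seen.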
